A study of Homo sapiens with 12 samples.

Results

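The replication-dependent histone genes encode the core histones H2A, H2B, H3 and H4 and the linker histone H1 that package newly made DNA. In the deposited RNA-seq table of NCI-H295R cells, 66 of 60662 genes were counted as this family (66 of the 19957 protein-coding genes). They were chosen by name alone, as protein-coding genes with an H2AC, H2BC, H3C or H4C symbol followed by a number, or one of H1-1 to H1-6. The class H1 had 6 genes, H2A 16, H2B 17, H3 13 and H4 14. NCI-H295R is an established human adrenocortical carcinoma line that secretes cortisol. Confluent cultures spent 12 h without serum and were then exposed for 24 h to vehicle (VEH, 0.1% DMSO), to CJ28 (30 µM, a benzimidazolylurea derivative) or to MET (metyrapone, 30 µM), with 4 samples in each group. Both compounds are inhibitors of cortisol biosynthesis. The design text calls the 4 samples biological replicates. Nothing in it says that they came from separate passages, so the p-values below measure the spread between these samples.

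Histone proteins form the spool around which DNA is wound, with H1 sitting on the DNA that enters and leaves it. The replication-dependent genes lie in clusters, mostly lack introns, and are transcribed mainly while DNA is copied in S phase. Their mRNAs do not end in a poly(A) tail. They end in a short stem-loop that is bound by the protein SLBP, cut by a complex that holds the U7 small nuclear RNA, and degraded when DNA synthesis stops. The libraries here were made from total RNA after removal of ribosomal RNA, not by poly(A) selection, so transcripts without a tail could enter them. Variant histones such as H3.3 and H2A.Z come from ordinary polyadenylated genes that are expressed outside S phase as well.

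The stem-loop is the feature that defines the family, and it was present in every gene counted here. In the genome sequence (GRCh38), the letters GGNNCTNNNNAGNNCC with 6 pairing positions (G with T allowed) were searched in the 150 bases after the stop codon on the coding strand. All 66 genes had a match, which began 23 to 68 bases after the stop codon (median 36). Among the 3092 protein-coding genes of chromosomes 1 and 6, where the 66 genes lie, 70 (2.26%) had one. The 4 others were also histone genes by name, H2AC25 (called H2AW in the table), H2BC26 (called H2BU1), H3-4 and H3-7 (called H3-2). The 66 genes used 10 forms of the 16 bases. The commonest form was shared by 38 genes of H1, H2A, H2B and H3, while 9 H4 genes shared another form and 9 genes of the other classes yet another. Stem-loops are given here for the most abundant gene and the gene with the largest fall in each of H2B, H3 and H4. That of the H1 gene with the smallest fall is added. The 2 arms of the stem are in capitals, with 5 flanking bases on each side. Any part of the stem-loop in the sizes of the changes was not tested.
H2BC14 (chr6:27815469-27815484, + strand): ccaaaGGCTCTtttcAGAGCCgtcca
H2BC12 (chr6:27146366-27146381, - strand): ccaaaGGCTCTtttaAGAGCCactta
H3C4 (chr6:26196789-26196804, - strand): ccaaaGGCTCTtttcAGAGCCaacca
H3C2 (chr6:26031597-26031612, - strand): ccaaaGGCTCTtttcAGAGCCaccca
H1-4 (chr6:26157095-26157110, + strand): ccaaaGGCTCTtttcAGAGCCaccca
H4C4 (chr6:26188715-26188730, - strand): ccaacGGCCCTtttcAGGGCCaccta
H4C11 (chr6:27824459-27824474, + strand): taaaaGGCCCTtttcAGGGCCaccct
The 26 bases printed for H3C2 and H1-4 are the same letters. The stems of H3C4 and H3C2, the H3 genes with the largest fall and the highest level, are identical too. The coordinates are those of the 16-base stem-loop without its flanks.

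The promoters also carried words that set the classes apart. RefSeq promoters (GRCh38.p14, 250 bases before to 50 after the start) were found for 61 of the 66 genes, 65 promoters in all, and the entries of divergent gene pairs cover partly the same bases. H2AC12, H3C11, H3C12, H4C1 and H4C3 had no entry. The CCAAT word, the letters bound by NF-Y, was present on either strand in 56 of 65 (86.2%), against 34.6% of all 35116 promoters. It was in all promoters of H1, H2A, H2B and H3 but in 3 of 12 of H4. The word TATAAA was in 67.7%, against 11.5% of all promoters. The octamer ATTTGCAT, the letters bound by the POU factor OCT1 (POU2F1), was in 41.5%, against 1.77%, and it occurred in 15 of 19 H2B promoters, 11 of 15 H2A promoters, 1 of 13 H3 promoters and no promoter of H1 or H4. The H3 promoter counted here is a second entry of H3C4 that has the same position, strand and bases as the H2AC7 promoter. No other H3 entry held the octamer. The 150 bases before the start of 3 genes show these differences, with the 3 words in capitals on either strand.
H2BC14 (chr6:27814872-27815021, + strand): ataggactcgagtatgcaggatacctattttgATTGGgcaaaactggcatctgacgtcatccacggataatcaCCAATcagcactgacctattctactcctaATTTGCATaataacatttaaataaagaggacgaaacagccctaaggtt
H1-4 (chr6:26156179-26156328, + strand): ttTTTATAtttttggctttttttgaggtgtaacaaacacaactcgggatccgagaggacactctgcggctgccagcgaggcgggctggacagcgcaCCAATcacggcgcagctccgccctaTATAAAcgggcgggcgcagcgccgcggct
H4C11 (chr6:27823942-27824091, + strand): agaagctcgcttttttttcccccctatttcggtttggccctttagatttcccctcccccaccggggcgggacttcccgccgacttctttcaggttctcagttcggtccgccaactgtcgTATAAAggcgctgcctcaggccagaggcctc
The H2B gene with the largest fall holds the octamer next to CCAAT words, the H1 gene with the smallest fall has CCAAT and TATAAA, and the most abundant H4 gene has TATAAA with no CCAAT. The octamer was also in the promoters of H2BC4, the H2B gene with the smallest fall, and of H2AC4 and H2AC6. H2AC4 and H2AC6 had the largest and the smallest fall of H2A. These are matches of letters, and no binding was measured. Any part of these words in the sizes of the changes was not tested.

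Many of the proteins are the same although the genes are not. In the GENCODE coding sequences, 13 of the 14 H4 genes encode 1 protein of 103 residues, and 10 of the 13 H3 genes encode 1 protein of 136 residues. The 16 H2A genes encode 10 distinct proteins and the 17 H2B genes 13, whereas the 6 H1 genes encode 6. In 4 pairs the coding bases themselves are identical, H2AC18 and H2AC19, H3C14 and H3C15, H4C11 and H4C12, and H4C14 and H4C15. The values were made with RSEM, which assigns a read that fits several genes in fractions, so the level of a single copy is less certain than the sum over a class. The deposited unit is TPM (a level per transcript length, as a share of all transcripts), whose sum is fixed in every sample, and the number of reads behind a value cannot be recovered from it.

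Whole-table facts that touch these genes are few. All 7 adrenocortical markers (such as NR5A1, the factor that drives steroidogenic genes) were above 0 in every sample, with a summed level of 271 to 281 TPM in VEH, 109 to 116 in CJ28 and 269 to 284 in MET. The lowest of these 7 markers did not exceed 0.97 TPM in any sample. Of 5 markers of other cell types (PTPRC, PECAM1, COL1A1, CHGA and EPCAM), 3 were above 0 in every sample, and the highest value of any was 5.35 TPM. PTPRC and PECAM1, which define leukocytes and endothelium, were at or near 0, and the 5 together stayed between 4.05 and 6.95 TPM in all samples. Their part in the histone results was not tested. Nuclear protein-coding genes held 24.3 to 24.8% of all TPM in VEH, 21.3 to 21.4% in CJ28 and 24.1 to 24.6% in MET, and RN7SL1 and RN7SL2, RNA components of the signal recognition particle, together held 29.7 to 32.7%, 36.0 to 38.2% and 31.4 to 32.9%. The median log2 fold change of all 16815 features tested was -0.13 in CJ28 against VEH. It was 0.02 after scaling by median-of-ratios factors and 0.09 with TPM recomputed over the nuclear protein-coding genes, and the main changes are therefore also given in these forms.

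Every class of replication-dependent histone mRNA was lower after CJ28, and no class passed the test in MET against VEH. The summed level of all 66 genes was 15000.4, 13888, 14676 and 13973 TPM in the 4 VEH samples and 6495, 6572, 6529 and 6583 TPM in the 4 CJ28 samples. It was 14204, 14717, 14277 and 14857 TPM in the 4 MET samples. The CJ28 samples lay far below both other groups, which overlapped. Of all TPM, the family took 1.44% ± 0.054 in the VEH samples, 0.654% ± 0.0041 in the CJ28 samples and 1.45% ± 0.032 in the MET samples (mean ± SD, n = 4). As a percentage of the nuclear protein-coding TPM it was 5.61 to 6.17 in VEH, 3.04 to 3.09 in CJ28 and 5.83 to 6.12 in MET. In RNA from whole cultures, fewer cells that express a gene and less RNA per cell cannot be told apart.

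H2B, which pairs with H2A in the nucleosome, had the largest class decrease. Its 17 genes summed to 3589, 3356, 3515 and 3363 TPM in VEH, to 1286, 1312, 1326 and 1315 TPM in CJ28 and to 3398, 3454, 3374 and 3435 TPM in MET. CJ28 was at 37.9% of the VEH mean, and the highest CJ28 sample was below the lowest VEH sample. The log2 fold change in CJ28 against VEH was -1.40 (SE 0.028, limma adjusted p = 2.6e-12). MET lay at 98.8% of VEH, a log2 difference of -0.02 (95% confidence interval -0.08 to 0.04, adjusted p = 0.97).

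H2A summed to 3750, 3438, 3613 and 3445 TPM in VEH, to 1505, 1562, 1511 and 1562 TPM in CJ28 and to 3445, 3667, 3449 and 3696 TPM in MET. CJ28 was at 43.1% of VEH, again without overlap, and the log2 fold change was -1.21 (SE 0.037, adjusted p = 6.9e-11). The H3 class, whose protein tail carries many of the known histone modifications, summed to 2467, 2256, 2362 and 2247 TPM in VEH, to 1056, 1071, 1044 and 1081 TPM in CJ28 and to 2288, 2393, 2375 and 2498 TPM in MET. This was 45.6% of VEH in CJ28, a log2 fold change of -1.13 (SE 0.036, adjusted p = 9.6e-11). H4, the partner of H3, summed to 3610, 3312, 3595 and 3370 TPM in VEH, to 1697, 1679, 1713 and 1657 TPM in CJ28 and to 3482, 3560, 3502 and 3631 TPM in MET. Its CJ28 level was 48.6% of VEH, a log2 fold change of -1.04 (SE 0.033, adjusted p = 9.3e-11).

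The linker histone class H1 fell least. It summed to 1586, 1527, 1591 and 1547 TPM in VEH, to 951, 949, 934 and 969 TPM in CJ28 and to 1592, 1642, 1577 and 1597 TPM in MET. CJ28 was at 60.9% of VEH, with a log2 fold change of -0.72 (SE 0.025, adjusted p = 2.0e-10). The 95% confidence interval of the H1 change (-0.77 to -0.66) did not meet those of the other classes, of which the nearest was H4 (-1.11 to -0.97) and the farthest H2B (-1.46 to -1.34). The intervals of H2A (-1.29 to -1.13) and H3 (-1.21 to -1.05) overlapped each other, and that of H3 overlapped that of H4. The classes were measured in the same samples, so overlap of these intervals does not test a difference between classes. Within samples, the log2 ratio of the H2A to the H3 sum was 0.604 to 0.616 in VEH, 0.512 to 0.544 in CJ28 and 0.538 to 0.616 in MET.

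**Figure D1:**
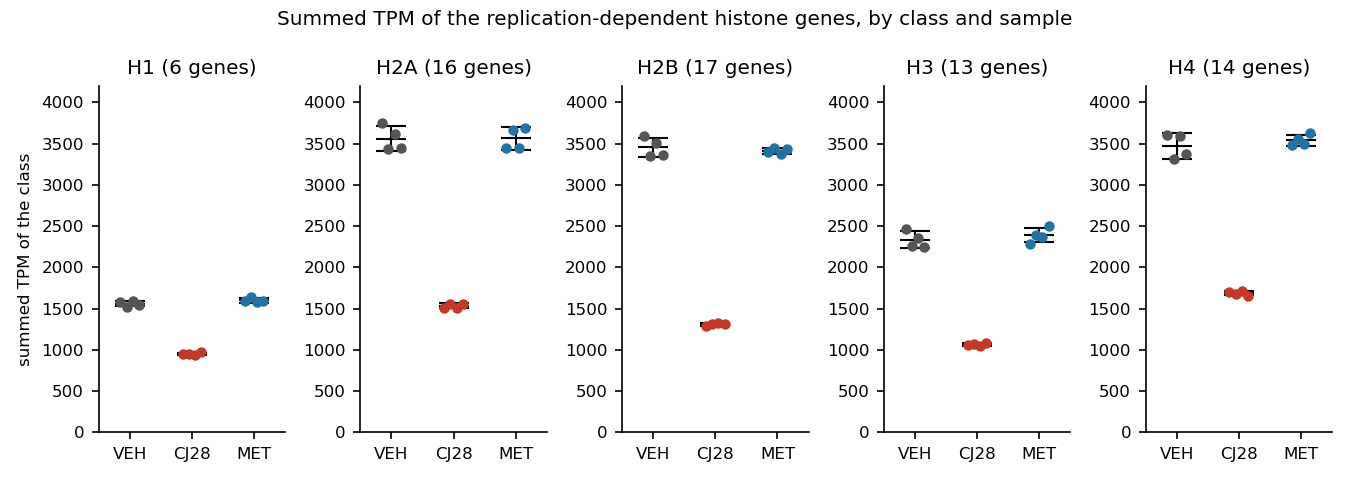
Summed TPM of each histone class (vertical axis, from 0) in the 4 samples of VEH, CJ28 and MET, one panel per class. Points are samples, and the horizontal mark with its bars is the mean ± SD (n = 4). All CJ28 points lie below all VEH and MET points in each panel, from 951 against 1563 TPM for H1 to 1310 against 3456 TPM for H2B in group means.

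After median-of-ratios scaling the class changes in CJ28 against VEH were -0.56 for H1, -1.06 for H2A, -1.25 for H2B, -0.98 for H3 and -0.89 for H4. With TPM over the nuclear protein-coding genes they were -0.51, -1.01, -1.19, -0.93 and -0.84 in the same order. For H1, H2A, H3 and H4 in MET against VEH the log2 differences were 0.04, 0.0014, 0.03 and 0.03 (adjusted p = 0.954, 0.9998, 0.959 and 0.960), and the 95% confidence intervals of all 5 classes together ran from -0.08 to 0.11. A change of that size or smaller could therefore not be told from none. Against MET, the CJ28 samples gave log2 differences of -0.75 for H1, -1.21 for H2A, -1.38 for H2B, -1.17 for H3 and -1.07 for H4. These comparisons share the CJ28 samples with the comparison against VEH.

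Because the classes fell by unequal amounts, the make-up of the histone mRNA pool shifted. A share within the family does not depend on how much TPM other RNAs take. H1 made up 10.6 to 11.1% of the family's TPM in VEH and 14.3 to 14.7% in CJ28. H2B went the other way, from 23.9 to 24.2% in VEH to 19.8 to 20.3% in CJ28, with MET at 23.1 to 23.9%, just below VEH without overlap. H2A was at 24.6 to 25.0% in VEH and 23.1 to 23.8% in CJ28, H4 at 23.8 to 24.5% and 25.2 to 26.2%. The share of H3 overlapped between the groups, at 16.1 to 16.4% in VEH and 15.99 to 16.4% in CJ28. The log2 ratio of the H2A to the H2B sum was 0.03 to 0.06 in VEH, 0.19 to 0.25 in CJ28 and 0.02 to 0.11 in MET. That of H3 to H4, whose proteins form a tetramer in equal parts, was -0.61 to -0.55 in VEH, -0.71 to -0.62 in CJ28 and -0.61 to -0.54 in MET. The largest shift was in H1 to H2B, at -1.18 to -1.12 in VEH, -0.51 to -0.43 in CJ28 and -1.10 to -1.07 in MET. MET did not overlap VEH for this ratio, by a gap far smaller than that of CJ28, and these ratios are descriptions without a test.

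Of the 66 genes, 63 reached the level needed for a test (0.5 TPM in 4 or more of the 12 samples). H4C13 was listed at 0 in all samples, H4C7 above 0 in MET-3 only (0.19 TPM), and H2AC1 at 0 in all CJ28 samples and at 0.11 to 0.74 TPM elsewhere, and these 3 were not tested. In CJ28 against VEH, 60 of the 63 were lower at an adjusted p under 0.05 and 0 were higher. Over all features, 37.1% were called lower and 19.9% higher. H4C12 passed the level only through VEH, and H1-6 and H2BC1 only through VEH and MET, so that they had to differ to be counted. By the mean over all samples, which does not favour a group, 60 genes had at least 1 TPM, and 57 of them were called lower, with a median log2 fold change of -1.28. No CJ28 sample reached any VEH sample in 60 of the 63 genes, against 32.7% of all features. The 3 genes not called were H3C14, H3C15 and H4C15, each one of a pair with identical coding bases.

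By class, the genes with a mean of at least 1 TPM that were called lower were 5 of 5 in H1 (median log2 fold change -1.22), 15 of 15 in H2A (-1.22), 16 of 16 in H2B (-1.72), 11 of 13 in H3 (-1.17) and 10 of 11 in H4 (-1.12). The sums and the medians differ most in H1, where the 2 most abundant genes changed least. After median-of-ratios scaling 60 of the same 63 genes were called lower, with a median of -1.16, and over the nuclear protein-coding genes 60, with a median of -1.11. All features moved too, from 6231 lower and 3346 higher in the first form to 4398 lower and 4924 higher of 16663 after median-of-ratios scaling, and to 3276 and 4871 of 12506 over the nuclear protein-coding genes.

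**Figure D2:**
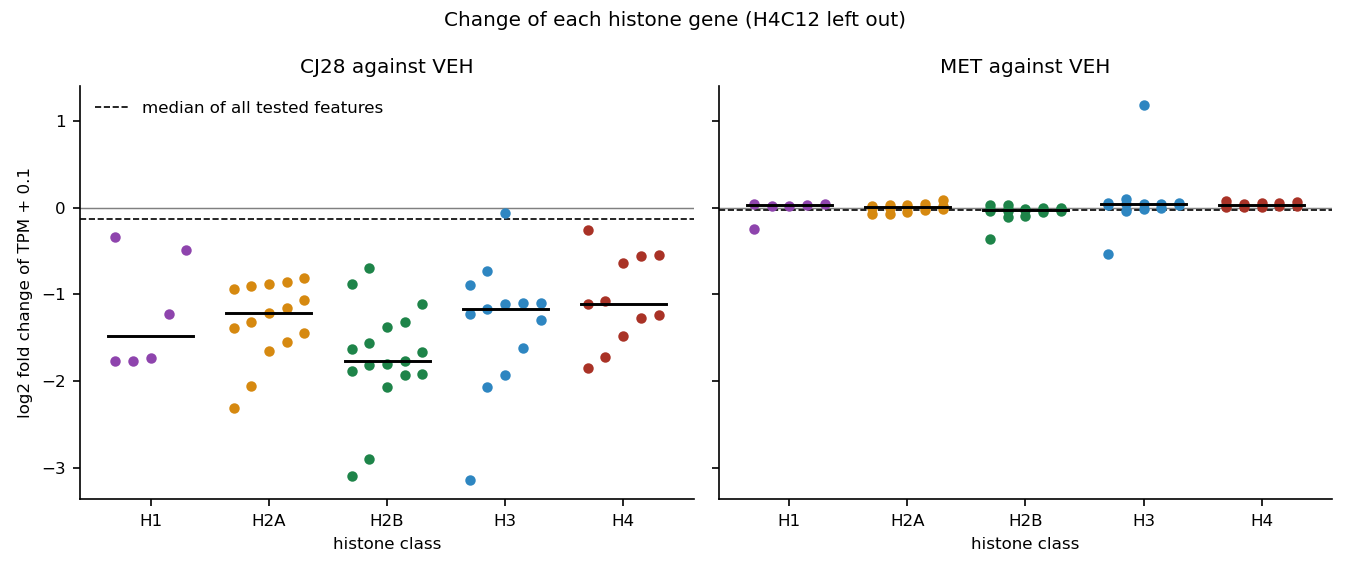
Log2 fold change of TPM + 0.1 (vertical axis) of each tested histone gene in CJ28 (left) and MET (right) against VEH, by class. Points are genes, short black lines are medians of the points shown, the dashed line is the median of all tested features (-0.13 left, -0.03 right), and H4C12, listed at 0 in CJ28 and MET, is left out. The CJ28 points lie below 0 and most MET points lie close to 0.

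Among H1 genes, which differ most in their proteins, the falls were unequal. H1-2 was the most abundant, with 602, 572, 597 and 581 TPM in VEH and 422, 419, 420.4 and 414 TPM in CJ28, a log2 fold change of -0.49 (SE 0.028, adjusted p = 1.8e-08). H1-4 (chr6:26156354-26157107) changed least, from 437, 408, 434 and 424 TPM to 333, 334, 320.3 and 363 TPM, a log2 fold change of -0.34 (SE 0.037, adjusted p = 7.5e-06). In both genes all CJ28 samples were below all VEH samples. After median-of-ratios scaling and over the nuclear protein-coding genes the H1 class change was -0.56 and -0.51, beside -0.72 in TPM. Part of these small falls thus depended on the scaling, and all 6 H1 genes were still called lower. H1-5 had 259, 248, 256 and 258 TPM in VEH and 78.0, 77.9, 74.8 and 76.3 TPM in CJ28, a log2 fold change of -1.73 (SE 0.028, adjusted p = 2.3e-13). H1-1, with 55.3 to 60.2 TPM in VEH and 16.1 to 18.6 TPM in CJ28, fell by 1.76 on the log2 scale (adjusted p = 2.1e-11). As a result H1-2 and H1-4 together went from 37.6% and 27.2% of the class in VEH to 44.05% and 35.5% in CJ28, while H1-5 went from 16.3% to 8.07%.

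In H2A, H2AC13 (chr6:27808199-27808701) had the highest VEH mean, with 602, 580, 600.2 and 571 TPM in VEH and 319, 322, 317 and 301 TPM in CJ28, a log2 fold change of -0.90 (SE 0.030, adjusted p = 1.1e-10). The largest fall of the class was in H2AC4 (chr6:26033176-26033568), from 172, 164, 177 and 171 TPM to 31.4, 36.4, 31.8 and 38.2 TPM, or -2.32 (adjusted p = 1.2e-11). Its CJ28 samples held 20.1% of the VEH mean. The smallest fall was in H2AC6, from 73.5 to 80.7 TPM in VEH to 43.0 to 44.99 TPM in CJ28, or -0.81 (adjusted p = 1.2e-09). H2AC8, at 329 to 363 TPM in VEH and 146 to 156 TPM in CJ28, lay between them at -1.22.

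H2B genes also changed by unequal amounts. H2BC14 (chr6:27815044-27815424) had 195, 175, 194 and 177 TPM in VEH, 20.9, 22.1, 20.4 and 22.9 TPM in CJ28, and 174, 182, 176 and 180.4 TPM in MET. Its CJ28 mean was 11.6% of VEH, a log2 fold change of -3.10 (SE 0.045, adjusted p = 1.4e-13). H2BC4 changed least in the class, from 434, 390.3, 409 and 389 TPM to 245, 253, 252 and 249.7 TPM, or -0.70 (adjusted p = 3.8e-09). H2BC12 was the most abundant H2B gene in VEH, with 473 to 492 TPM, and had 213 to 230.2 TPM in CJ28 (log2 fold change -1.11). In CJ28 the order changed, as H2BC4 then held 19.1% of the class and H2BC12 17.0%, against 11.7% and 13.9% in VEH. H2BC5 stood at 388 to 416 TPM in VEH and 129 to 140 TPM in CJ28 (-1.56, adjusted p = 3.2e-12).

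In H3, H3C2 was the most abundant gene of the whole family, with 805, 734, 789 and 746 TPM in VEH and 462, 469, 454 and 473 TPM in CJ28, a log2 fold change of -0.72 (SE 0.035, adjusted p = 3.0e-09). Its share of the class rose from 32.9% to 43.7% of the group means, a description without a test. H3C4 (chr6:26196840-26197250) fell from 54.6, 52.4, 62.0 and 57.8 TPM to 4.69, 10.1, 4.32 and 7.76 TPM, or -3.14 (SE 0.236, adjusted p = 2.0e-07), with CJ28 at 11.8% of VEH. It was variable in MET as well, with 47.8, 59.3, 46.2 and 74.7 TPM. H3C3 fell from 258 to 321 TPM in VEH to 64.8 to 69.6 TPM in CJ28, or -2.07 (adjusted p = 4.3e-11), and H3C7 from 335 to 353 TPM to 159 to 162 TPM, or -1.10. H3C13, H3C14 and H3C15 encode a second H3 protein. Their sum was 139 to 162 TPM in VEH and 60.5 to 65.9 TPM in CJ28, 42.4% of VEH, and the sum of the other 10 H3 genes was 2109 to 2305 TPM and 980 to 1015 TPM, 45.8% of VEH.

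The H4 genes make nearly the same protein, and their mRNAs still changed by different amounts. H4C11 (chr6:27824108-27824480) had 689, 576, 659 and 594 TPM in VEH and 427, 432, 446 and 417 TPM in CJ28, a log2 fold change of -0.54 (SE 0.054, adjusted p = 2.6e-06). H4C4 (chr6:26188765-26189076) had 519.96, 485, 503 and 490.2 TPM in VEH and 138, 144, 135.02 and 138 TPM in CJ28, or -1.85 (SE 0.033, adjusted p = 7.7e-13). H4C4 therefore went from 14.4% to 8.23% of the class and H4C11 from 18.1% to 25.5%. H4C8 lay between them, at 541 to 605 TPM in VEH and 201 to 205 TPM in CJ28 (-1.48, adjusted p = 6.2e-12).

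**Figure D3:**
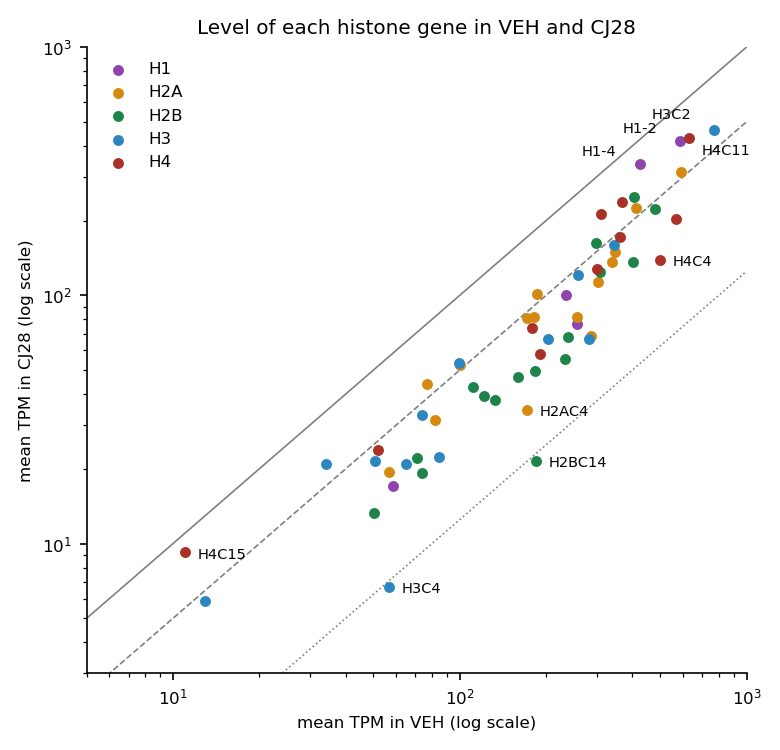
Mean TPM in CJ28 (vertical axis, log scale) against mean TPM in VEH (horizontal axis, log scale) for the 60 histone genes with a mean of at least 1 TPM over all samples, coloured by class (n = 4 per mean). The solid line marks equal levels, the dashed line a CJ28 level 2-fold below VEH and the dotted line a level 8-fold below. All points lie below the solid line, and H3C4 and H2BC14 lie lowest against it.

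Across the family, 7 genes had a log2 fold change below -2 and 16 had one above -1, of the 62 tested genes other than H4C12. Over the genes with a mean of at least 1 TPM, Spearman's rank correlation of the VEH mean with the log2 fold change was 0.80 for 5 H1 genes, 0.51 for 16 H2B genes, and 0.09, 0.10 and -0.11 for 15 H2A, 13 H3 and 11 H4 genes. These are descriptions across genes that share libraries, and the VEH values enter both measures. The gene models also differ, since 29 of the 66 loci in the table hold the coding bases alone and the others also hold transcribed bases outside them. Among the 60 genes with a mean of at least 1 TPM, the median log2 fold change was -1.65 for the 25 with coding bases alone (range -3.14 to -0.49) and -1.22 for the other 35 (range -2.07 to -0.06). The part of the gene models in the sizes of the changes was not tested.

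The summed levels fell by similar amounts in all 4 clusters, while the medians over single genes differed more. In coordinates of the table (GRCh38), 11 genes lie at chr1:149782689-149888013, 34 at chr6:25726132-26285638, 5 at chr6:27125897-27147515 and 16 at chr6:27807444-27893843. Their summed CJ28 levels were 45.9%, 46.6%, 42.4% and 43.9% of VEH in that order. The median log2 fold changes of the tested genes were -1.07, -1.52, -1.12 and -1.38 in the same order. An H2A and an H2B gene whose starts lie within 500 bases on opposite strands formed 10 pairs. In 6 of the 9 pairs with both genes tested the H2B gene had the larger fall. H2AC14 and H2BC14, 304 bases apart, had log2 fold changes of -1.65 and -3.10, while H2AC12 and H2BC12, 331 bases apart, had -2.05 and -1.11. H2AC6 and H2BC4, 219 bases apart, were close to each other at -0.81 and -0.70. Neighbours with a common start region thus changed by different amounts in either order.

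The level given to a single gene was least certain for identical copies. H3C14 was listed at 93.6, 14.7, 20.1 and 8.18 TPM in VEH, at 20.97, 20.7, 20.4 and 21.9 TPM in CJ28 and at 48.6, 19.8, 77.8 and 82.8 TPM in MET. H3C15 had 12.4, 78.2, 81.2 and 88.6 TPM in VEH, the same 4 values as H3C14 in CJ28, and 48.6, 80.0, 18.1 and 22.2 TPM in MET. The share of H3C14 in the pair thus ran from 8.45 to 88.3% in VEH and from 19.9 to 81.1% in MET, and was 50% in every CJ28 sample. The sum of the pair was steady, at 92.9 to 106 TPM in VEH, 40.7 to 43.7 TPM in CJ28 and 95.9 to 105 TPM in MET. Neither gene passed the test alone (log2 fold changes -0.06 and -1.29, adjusted p = 0.942 and 0.083). The summed pair had a log2 fold change of -1.24 (SE 0.044) and 95% confidence interval of -1.33 to -1.14, with the 4 pairs entered as 1 feature each in the fit, a form chosen after the data were seen. For H3C14 alone the value became 0.64 without the sample VEH-1, where the split went the other way.

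**Figure D4:**
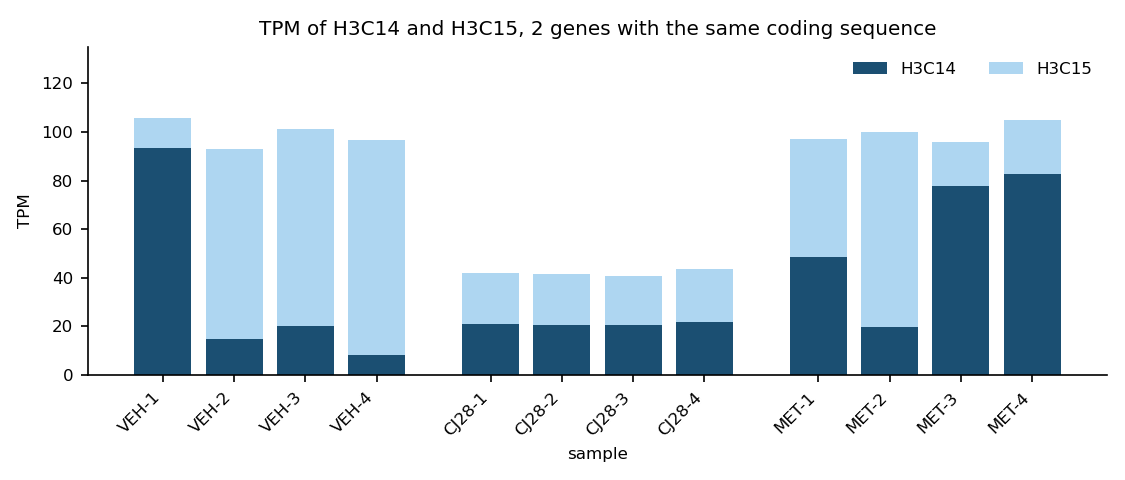
TPM of H3C14 (dark) and H3C15 (light), stacked from 0, in each of the 12 samples. The height of the whole bar is 92.9 to 106 TPM in VEH, 40.7 to 43.7 TPM in CJ28 and 95.9 to 105 TPM in MET, while the border between the colours moves from sample to sample in VEH and MET and sits at the middle of the bar in CJ28.

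H4C12 is the other case. It was listed at 1.62, 3.74, 0.85 and 1.66 TPM in VEH and at 0 in all CJ28 and all MET samples. It was the 1 histone gene called in MET against VEH (limma adjusted p = 0.0022). It was also the only feature called among all 16815 in that comparison (0.00595%). Its coding bases are those of H4C11, which had 576 to 689 TPM in VEH, 417 to 446 TPM in CJ28 and 614 to 666 TPM in MET. H4C11 took 99.4 to 99.9% of the pair in VEH and 100% in the other groups. The sum of the pair differed between MET and VEH by 0.02 on the log2 scale (95% confidence interval -0.10 to 0.13, adjusted p = 0.985). With pseudocounts of 0.01 and 1 in place of 0.1 the call of H4C12 in MET was lost (adjusted p = 0.922 and 0.1503). H4C15, at 9.46 to 13.02 TPM in VEH and 7.33 to 11.3 TPM in CJ28, had a log2 fold change of -0.26 (adjusted p = 0.164), and its sum with the identical H4C14 fell by 1.04 (SE 0.038). The sum of H2AC18 and H2AC19 fell by 1.08 (SE 0.029), where the single genes gave -1.44 and -0.86. In the table, H4C14 and H3C14, H3C15 and H4C15, and H2BC15 and H2AC15 also overlap on opposite strands, and H2BC15 and H2AC16, and H3C12 and H2AC17, on the same strand. The kit keeps strand, and the strand setting used for the table is not given in the sources used here.

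Apart from H4C12, no histone gene was called in MET against VEH. At an unadjusted p under 0.05 there were 3 (H4C12, H2BC10 and H2BC21), and 874 among all features. H2BC21 had a difference of -0.09 (95% confidence interval -0.18 to -0.01). In CJ28 against MET, 59 of 63 were called lower and 0 higher, where 34.6% of all features were called lower, and the 4 not called were H3C14, H3C15, H4C12 and H4C15.

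Histone mRNAs are made and matured by dedicated proteins together with general factors. Of 25 genes listed for these steps, dedicated and general, 15 fell and 3 rose in CJ28 against VEH (median log2 fold change -0.37). Over all features 37.1% were called lower and 19.9% higher. After median-of-ratios scaling 15 were lower and 5 higher, and over the nuclear protein-coding genes 12 and 7. The counts over all features in these 2 forms were 4398 lower and 4924 higher of 16663, and 3276 and 4871 of 12506. SLBP, which binds the stem-loop, had 38.5, 37.2, 38.0 and 37.3 TPM in VEH and 26.5, 27.2, 28.8 and 25.3 TPM in CJ28, a log2 fold change of -0.49 (SE 0.041, adjusted p = 6.5e-07). NPAT, the cyclin E-CDK2 substrate that activates histone gene transcription, went from 7.26, 8.29, 8.77 and 8.49 TPM to 5.86, 5.95, 5.12 and 4.77 TPM, or -0.59 (adjusted p = 7.5e-05). For CASP8AP2 (FLASH), which links NPAT to mRNA processing, the difference was -0.10 (adjusted p = 0.139), and it was 0.05 and 0.11 under the 2 scalings. Without VEH-1 it was called, at -0.14 (adjusted p = 0.028). CCNE2, a cyclin E, had the largest fall of the list, from 11.1, 11.6, 12.4 and 11.3 TPM to 2.31, 2.07, 2.19 and 2.32 TPM, or -2.33 (SE 0.057, adjusted p = 9.2e-12). SRRT (ARS2), a partner of the cap-binding complex, fell by 1.17.

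Of the genes that rose, ZNF473 (a zinc-finger protein of the U7 processing complex) had 6.27 to 8.33 TPM in VEH and 10.1 to 12.0 TPM in CJ28, or 0.58 (adjusted p = 2.6e-04). LSM10, a protein of the U7 ring, had 4.05, 3.72, 4.58 and 5.85 TPM in VEH and 6.81, 6.49, 4.90 and 9.73 TPM in CJ28. The groups overlapped, and the log2 fold change of 0.59 had an adjusted p of 0.035. Leaving out VEH-1, VEH-2, VEH-3, CJ28-1, CJ28-2 or CJ28-4 moved that adjusted p to between 0.0548 and 0.106, and with no filter on low values it was 0.081. Of 14 genes of histone mRNA decay and translation, 7 fell and 2 rose (7 and 4 after median-of-ratios scaling, 6 and 5 over the nuclear protein-coding genes). Beside these, 37.1% of all features were called lower and 19.9% higher. In the 2 scalings it was 4398 and 4924 of 16663, and 3276 and 4871 of 12506. LSM3 and LSM4, of the LSM1-7 ring that binds mRNAs marked for decay, fell by 1.04 and 0.72. CTIF and MIF4GD, which act in the translation of capped and of histone mRNAs, rose by 0.51 and 0.31.

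The replication-independent and variant histones did not move as 1 group. Of 12 genes, 10 were tested, and 6 fell, 2 rose and 2 were not called (6 and 3 over the nuclear protein-coding genes). Beside these, 37.1% of all features were called lower and 19.9% higher (3276 and 4871 of 12506 over the nuclear protein-coding genes). H1-10, a linker histone variant, had 34.5, 32.95, 34.4 and 35.6 TPM in VEH, 39.2, 42.97, 38.9 and 45.8 TPM in CJ28 and 34.3, 32.7, 32.03 and 34.2 TPM in MET. All CJ28 samples were above all others, and the log2 fold change was 0.28 (SE 0.052, adjusted p = 5.7e-04).

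H3-3A and H3-3B encode the same protein, H3.3, and went in opposite directions. H3-3A had 155, 160, 155 and 167 TPM in VEH and 66.2, 64.2, 63.8 and 63.4 TPM in CJ28, or -1.30 (SE 0.030, adjusted p = 5.2e-12). H3-3B had 185, 164, 176 and 178 TPM in VEH and 213, 218, 214 and 226 TPM in CJ28, or 0.31 (SE 0.038, adjusted p = 1.6e-05). After the 2 scalings H3-3A was at -1.15 and -1.10 and H3-3B at 0.46 and 0.52, so the directions held. Their sum was 324 to 345 TPM in VEH and 278 to 289 TPM in CJ28. Their share of the TPM summed over H3-3A, H3-3B and the H3 class was 12.1 to 13.3% in VEH and 20.8 to 21.1% in CJ28. MET was at 11.8 to 12.8%.

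Of the H2A variants tested, 4 fell and 2 were not called. H2AZ1 and H2AZ2, the genes of H2A.Z, had log2 fold changes of -0.85 and -1.26 (adjusted p = 3.6e-09 and 2.5e-11). H2AX, whose phosphorylated form marks DNA breaks and whose mRNA can end in either a stem-loop or a tail, went from 40.7, 40.2, 44.1 and 45.8 TPM to 14.7, 15.9, 14.7 and 19.9 TPM, or -1.39 (adjusted p = 4.2e-08). CENPA, the centromeric H3 variant, fell by 0.91 (adjusted p = 2.6e-07) and MACROH2A1 by 0.44. MACROH2A2 and H2AJ were at -0.05 and -0.22 and were not called.

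**Figure D5:**
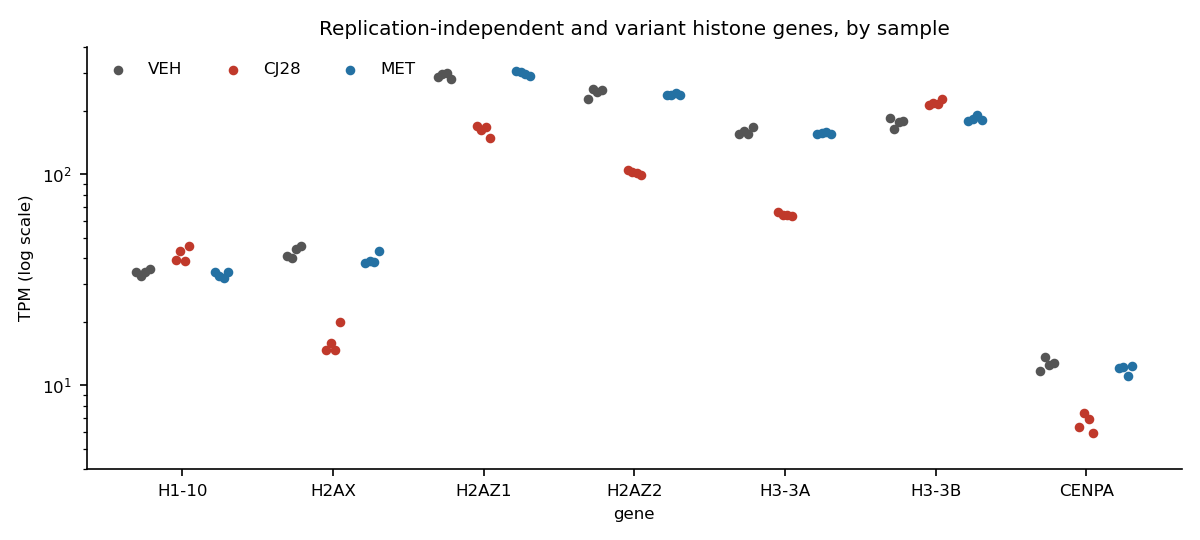
TPM (vertical axis, log scale) of 7 replication-independent or variant histone genes in the 4 samples of VEH (grey), CJ28 (red) and MET (blue). Each point is a sample. H1-10 and H3-3B are higher in CJ28 and the other 5 are lower, while MET stays near VEH in all 7.

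Among 21 chaperones and assembly factors, which carry histones to DNA, 18 fell and 0 rose, and 12 fell and 1 rose after median-of-ratios scaling (11 and 1 over the nuclear protein-coding genes). Over all features 37.1% were called lower and 19.9% higher, and in the 2 scalings 4398 and 4924 of 16663, and 3276 and 4871 of 12506. ASF1B, the H3-H4 chaperone of dividing cells, had 16.4, 15.1, 14.5 and 15.3 TPM in VEH and 5.10, 5.18, 4.76 and 4.49 TPM in CJ28, or -1.63 (SE 0.055, adjusted p = 1.3e-10). NAP1L4, NASP and CHAF1A, a carrier of H2A-H2B, the keeper of the soluble H3-H4 pool and the large subunit of CAF-1, fell by 0.91, 0.86 and 0.69. All 18 genes of an S phase list fell (median -0.86), against 37.1% of all features. After median-of-ratios scaling 17 of 18 were called lower (median -0.71), and over the nuclear protein-coding genes 16 (median -0.66). RRM2, a subunit of the enzyme that makes deoxyribonucleotides, had 46.6, 54.8, 55.8 and 59.6 TPM in VEH and 6.98, 8.50, 7.14 and 8.32 TPM in CJ28, or -2.79 (SE 0.082), and TK1, thymidine kinase, fell by 1.51. The proliferation markers MKI67, PCNA and TOP2A, given beside the histone values, had log2 fold changes of -1.60, -1.40 and -0.92. Their part in the histone decrease was not tested. In MET against VEH 0 genes of these lists were called.

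Some cluster histone genes are known to yield polyadenylated transcripts as well. Of 6 such genes (H2AC6, H2BC4, H2BC5, H2BC12, H2BC21 and H1-2), all 6 fell, where 37.1% of all features were called lower. Their median was -0.96 beside -1.28 over the 60 genes with a mean of at least 1 TPM. They spanned -1.67 (H2BC21) to -0.49 (H1-2). Of histone genes that the name rule left out, 3 were tested. H2BU1 fell by 0.93, and H2AW and H4-16 had differences of 0.08 and -0.59 that did not pass the test (adjusted p = 0.218 and 0.124). H2AW was called higher over the nuclear protein-coding genes, at 0.28.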

How the data were processed

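RNA-seq of 12 NCI-H295R samples (VEH, CJ28 and MET, 4 each) was used, grouped by the sample labels. The authors depleted ribosomal RNA, made stranded libraries, and processed the reads with Cutadapt 2.8, STAR 2.7.10b and RSEM 1.3.3 on GRCh38, per the submitters' processing notes. They deposited TPM per gene, which keeps no read numbers, so no interval for counting error was made and the depth behind a value is unknown. The annotation release is not given in the sources used here. Of the 66 genes, 64 had the same identifier in GENCODE v44 and 5 the same start and end.

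From the deposited TPM, log2(TPM + 0.1) was fitted with limma 3.58.1 in R 4.3.3 (lmFit, eBayes with a trend, all 12 samples, no covariate) over the 16815 features that reached 0.5 TPM in 4 samples, with Benjamini-Hochberg adjustment over all features. Fold changes on this scale understate those of low genes. For class sums, the 66 genes were replaced by 5 sums per sample (16757 features). Tests are two-sided, and the procedure was tested on simulated data. Sequences were read from GRCh38, GENCODE v44 and RefSeq promoters (GRCh38.p14) with Python 3.11.15 and Biopython 1.88. Genes named are, per class, the 3 most abundant in VEH and those with the largest and smallest decrease, any called in MET, and per list fixed genes and the 2 largest rises and falls, while identical copies, H2BC10, H2BC21, H2AZ2, the MACROH2A genes, H2AJ, the 4 further stem-loop genes and gene pairs were added after their values were seen. The genes and lists were chosen with earlier results of these data known. Alternatives were other pseudocounts, filters, scalings, sample sets, summed genes and leaving out each sample. 1 gene of the variant histone list is not reported here. No per-sample column was left unused (0).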

Additional observations from a re-analysis of the deposited data

Results flagged for a closer look

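In 159 groups of 4 samples, 5 values stood apart from the other 3 samples of their group by a gap, relative to the group's range, above Dixon's 95% critical value. Chance marks about 1 group in 20. H3C14 in VEH was highest in VEH-1, at 93.59 TPM, against 8.18 to 20.1 TPM in the other samples, where its identical copy H3C15 took the larger part. H2AX in MET was highest at 43.09 TPM, against 37.7 to 38.6 TPM. CENPA in MET was lowest at 11.04 TPM, against 12.1 to 12.3 TPM. LSM3 in VEH was lowest at 13.69 TPM, against 14.6 to 14.8 TPM, and NAP1L4 in MET was lowest at 21.37 TPM, against 23.27 to 23.29 TPM. The last 4 differ little from their groups in size.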

How the results depend on the processing

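The class decreases in CJ28 against VEH kept their direction and their call under every alternative run, from -0.87 to -0.51 for H1, -1.28 to -1.01 for H2A, -1.45 to -1.19 for H2B, -1.39 to -0.93 for H3 and -1.18 to -0.84 for H4. The outer values came from leaving out the most abundant gene of a class and from TPM over the nuclear protein-coding genes. The number of histone genes called in CJ28 against VEH was 57 with a mean TPM of at least 1, 59 with identical copies summed and 59 to 61 otherwise. In MET against VEH it was 1, and 0 with pseudocounts of 0.01 or 1, a mean TPM of at least 1 or identical copies summed, and 0 to 1 when a sample was left out (0 without any 1 of the VEH samples). H4C12 was the gene concerned. Without any 1 of the VEH samples, or with a mean TPM of at least 1, H4C12 did not reach the filter. With identical copies summed it was not a feature of its own. The counts of 0 in these settings therefore did not test it again. Class differences near 0 in MET against VEH changed sign, for H2A from 0.0014 to -0.0036 without its most abundant gene and between -0.016 and 0.026 when a sample was left out, and for H2B from -0.017 to 0.015 after median-of-ratios scaling and between -0.030 and 0.0018. H3C14 in CJ28 against VEH went from -0.06 to 0.093 and 0.15 under the 2 scalings and lay between -0.53 and 0.64 when a sample was left out, and CASP8AP2 went from -0.10 to 0.055 and 0.11. Of the cluster genes outside the name rule, 1 was called in CJ28 against VEH, 2 after median-of-ratios scaling, 3 over the nuclear protein-coding genes and 1 to 2 when a sample was left out (2 without CJ28-3), and in CJ28 against MET 1 and 2 over the nuclear protein-coding genes. The causes were not tested. With a replicate block in the fit the H2B change was -1.40 and 60 histone genes were called. Deviations of samples with the same number correlated by 0.0040 to 0.039 between CJ28 and VEH, so the numbers were not taken as pairing. TPM gives no depth, which limits the smallest difference that can be judged.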
